A study of Mus musculus with 12 samples.

Results

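The 6 genes described here are commonly read as genes of the sympathetic nerve supply of fat and the Schwann cells around its axons. Other cells also make S100b and Cnp. The 6 were followed across brown and white adipose tissue of mice kept warm or cold. S100b, Th, Dbh, Slc6a2, Sox10 and Cnp were chosen by name, as neurotrophic, catecholamine and Schwann cell genes, and they are 6 of the 23163 genes in the count table. In sWAT, S100b rose in the cold while Cnp fell. Sox10 also fell there, in a call near the threshold that 1 correction turned and that most single-library omissions ended. In BAT, S100b rose as well, by less, and Cnp and Sox10 did not pass the test. The 3 genes that make or take up noradrenaline, Th, Dbh and Slc6a2, were at or near 0 counts in every library.

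The mice were male C57Bl/6, 8 to 12 weeks old, 20 in all, with 10 at each temperature and no genetic change or drug named. They spent 72 hours at 30 °C, which is thermoneutral for a mouse, or at 4 °C, called cold here. Brown adipose tissue (BAT, a heat-producing depot) and subcutaneous white adipose tissue (sWAT, a storage depot that can turn partly brown in the cold) were taken, and total RNA was sequenced as 3 libraries for each of the 4 groups. Each group has libraries from experiments 1, 2 and 3 by their titles, and the labels do not say what libraries of 1 experiment share. The labels do not say whether a library is 1 animal or a pool, so the p-values measure the spread between these libraries, which may in part be technical.

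Whole depots were used, so each library mixes adipocytes with nerve, vessel, blood and immune cells. The 7 adipocyte markers summed to between 5386 and 19735 CPM (counts scaled to a common library total, by TMM throughout) in every library, with none at 0. Ucp1, the uncoupling protein of brown fat, ranged from 1419 to 2553 CPM in BAT at 30 °C and from 20079 to 23101 in the cold, against 41.2 to 377 and 3211 to 13212 in sWAT. Library totals ran from 27117934 to 56243016 counts. The 3 sWAT libraries at 30 °C stood apart from the other 9: mitochondrially encoded genes took 0.181 to 0.307% of their counts against 17.6 to 53.8%. Their log2 level also rose with a gene's GC content, by 0.80 to 1.37 for each 10 percentage points, against −0.74 to 0.24 in the others. Since all 3 were of 1 group, this difference cannot be told apart from temperature in sWAT, and every value that uses the warm sWAT group rests on them.

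Sympathetic nerves reach fat from ganglia that lie outside it, so a depot holds their axons but not their cell bodies, where most neuronal mRNA is made. The axons release noradrenaline, which drives heat production and fat breakdown in adipocytes. Tyrosine hydroxylase (Th) catalyses the rate-limiting step of catecholamine synthesis, dopamine beta-hydroxylase (Dbh) turns dopamine into noradrenaline, and the transporter Slc6a2 returns released noradrenaline to the axon. Schwann cells ensheath the axons: Sox10 is the transcription factor that sets their identity, and Cnp is an enzyme of the cytoplasm of myelinating glia that many other cells also make. S100b is a small calcium-binding protein widely used as a Schwann cell and glial marker. Brown adipocytes also make and release it, with the help of an adipocyte form of calsyntenin 3 (Clstn3), and it acts on sympathetic axons as a neurotrophic factor.

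The genes lie on 6 chromosomes of mm10 (GENCODE M21). S100b is at chr10:76253853-76261159 on the plus strand, Cnp at chr11:100574904-100591729 (plus), Sox10 at chr15:79154908-79165240 (minus), Th at chr7:142892752-142931128 (minus), Dbh at chr2:27165233-27183200 (plus) and Slc6a2 at chr8:92960079-93001667 (plus). All 6 code for proteins. S100b overlaps Dip2a on the other strand without a shared exonic base, and Cnp overlaps Dnajc7 on the other strand over 154 of its 3639 exonic bases. Whether the counting used strand is not given in the sources used here, so reads in such overlaps are uncertain.

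Promoter windows were found for 4 of the 6 genes in RefSeq (GRCm38.p6), each from 250 bases before to 50 bases after the annotated start and written 5′ to 3′ on the gene's strand. Those of the pair that moved in opposite directions in sWAT, and of Th as the gene that starts catecholamine synthesis, are printed because they are the regulatory sequence next to the values that follow. S100b is chr10:76253586-76253885 on the plus strand, Cnp is chr11:100574689-100574988 on the plus strand and Th is chr7:142899946-142900245 on the minus strand, and capitals mark matches to the motifs searched. The GENCODE record of Th begins upstream of the RefSeq start.
S100b: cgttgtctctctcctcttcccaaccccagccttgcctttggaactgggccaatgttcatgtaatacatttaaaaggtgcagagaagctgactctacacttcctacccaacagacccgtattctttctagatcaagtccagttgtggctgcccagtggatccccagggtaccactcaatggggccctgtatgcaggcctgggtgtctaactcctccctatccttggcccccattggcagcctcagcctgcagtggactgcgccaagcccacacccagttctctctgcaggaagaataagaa
Cnp: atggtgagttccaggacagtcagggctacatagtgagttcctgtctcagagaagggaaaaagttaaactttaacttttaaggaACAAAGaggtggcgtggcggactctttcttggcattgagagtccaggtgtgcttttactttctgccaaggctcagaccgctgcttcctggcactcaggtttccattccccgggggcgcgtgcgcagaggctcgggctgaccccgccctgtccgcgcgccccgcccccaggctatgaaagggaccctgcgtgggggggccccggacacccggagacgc
Th: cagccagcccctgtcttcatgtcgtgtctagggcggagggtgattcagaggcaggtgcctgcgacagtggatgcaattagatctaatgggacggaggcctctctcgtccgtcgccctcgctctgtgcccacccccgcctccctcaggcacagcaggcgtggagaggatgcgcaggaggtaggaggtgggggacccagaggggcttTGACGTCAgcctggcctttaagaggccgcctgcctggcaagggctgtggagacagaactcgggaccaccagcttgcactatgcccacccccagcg
A set of 4 motifs was searched on both strands: TGACGTCA, the full cAMP response element, TGACG, its shorter form and contained in it, ACAAAG, a core bound by SOX factors, and AGGTCA, a nuclear receptor half-site. The Th window held TGACGTCA, starting at position 206 of its 300 bases, a motif that 1.79% of 32851 promoter windows of the same length held. The Cnp window held ACAAAG at position 84, found in 18.7% of windows. Dbh held TGACG on its other strand at position 29, found in 20.8% of windows, and S100b held none of the 4 (AGGTCA was in 16.3%). A match is a description of the letters and not of a bound site.

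S100b was the most responsive of the 6 genes. In BAT at 30 °C its 3 libraries held 24.7, 32.7 and 25.9 CPM, and in the cold 65.5, 59.4 and 66.8, so every cold library lay above every warm one. With 3 libraries against 3 the smallest 2-sided permutation p is 0.1, so a lack of overlap is only a description throughout. The means were 27.8 ± 4.34 and 63.9 ± 3.95 CPM (SD, n = 3 each). The log2 fold change was 1.26 ± 0.25 (SE; adjusted p = 0.0157 by edgeR's quasi-likelihood test over all genes tested). It was the 1 member called in BAT (an adjusted p under 0.05 is a call throughout), where 12.2% of the genes tested were called, 6.82% higher and 5.34% lower. Leaving out 1 library ended this call in 4 of 6 cases, with adjusted p = 0.0692 and 0.0504 without warm library 1 or 2 and 0.0711 and 0.0646 without cold library 1 or 2, while the log2 fold change stayed between 1.14 and 1.41. Without both BAT libraries numbered 3 it was 1.17 (adjusted p = 0.00079). Over all genes, 996 were called higher and 781 lower in BAT with every library. In the 4 omissions that ended the S100b call these became 338 and 250, 303 and 200, 362 and 167, and 305 and 146. Without warm or cold library 3 they were 1165 and 1017, and 1378 and 1105. The same fall applies to the other BAT calls lost on these omissions below.

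In sWAT, S100b was low at 30 °C, with 3.74, 1.50 and 1.54 CPM, and rose to 23.9, 39.7 and 49.8 CPM in the cold. The groups did not overlap, and the lowest cold library stood well above the highest warm one. The log2 fold change was 4.05 ± 0.47 (adjusted p = 0.000466, edgeR), and 4.65 without warm library 1, the highest of the warm ones. All 3 members that could be tested were called in sWAT, where 49.2% of all genes tested were called, 25.1% higher and 24.1% lower. A call in sWAT was therefore common. Whether a depot's S100b level reflects more cells that make it or more RNA per cell cannot be told apart in such bulk samples, and this holds for every gene below.

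The response of S100b to cold was larger in sWAT than in BAT by 2.86 ± 0.51 on the log2 scale (adjusted p = 0.00249 for the difference itself, edgeR over 12 libraries), a contrast in which 25.1% of genes were called, 17.3% with a positive and 7.85% with a negative difference. At 30 °C the depots differed: S100b was 3.62 ± 0.39 higher in BAT on the log2 scale (adjusted p = 1.07e-05, with 58.7% of genes called, 29.9% higher and 28.8% lower in BAT). In the cold the difference between the depots was 0.76 ± 0.35 and did not pass (adjusted p = 0.195, with 12.3% of genes called), and the 3 BAT libraries still lay above the 3 of sWAT. These 3 comparisons share their groups with the responses within each depot, so they are not independent of them. In order, the mean levels were highest in cold BAT, then cold sWAT, warm BAT and warm sWAT. Cold sWAT, at 37.8 ± 13.1 CPM, overlapped warm BAT, and the pair was not compared by a test.

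Dip2a, which overlaps S100b on the opposite strand, also rose in both depots, by 1.74 ± 0.29 in BAT (adjusted p = 0.00877) and 1.04 ± 0.31 in sWAT (adjusted p = 0.0210, edgeR) on the log2 scale. Its mean in warm sWAT was 26.3 CPM, well above the 2.26 CPM of S100b there. The part of these reads in the S100b counts was not tested.

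**Figure D1:**
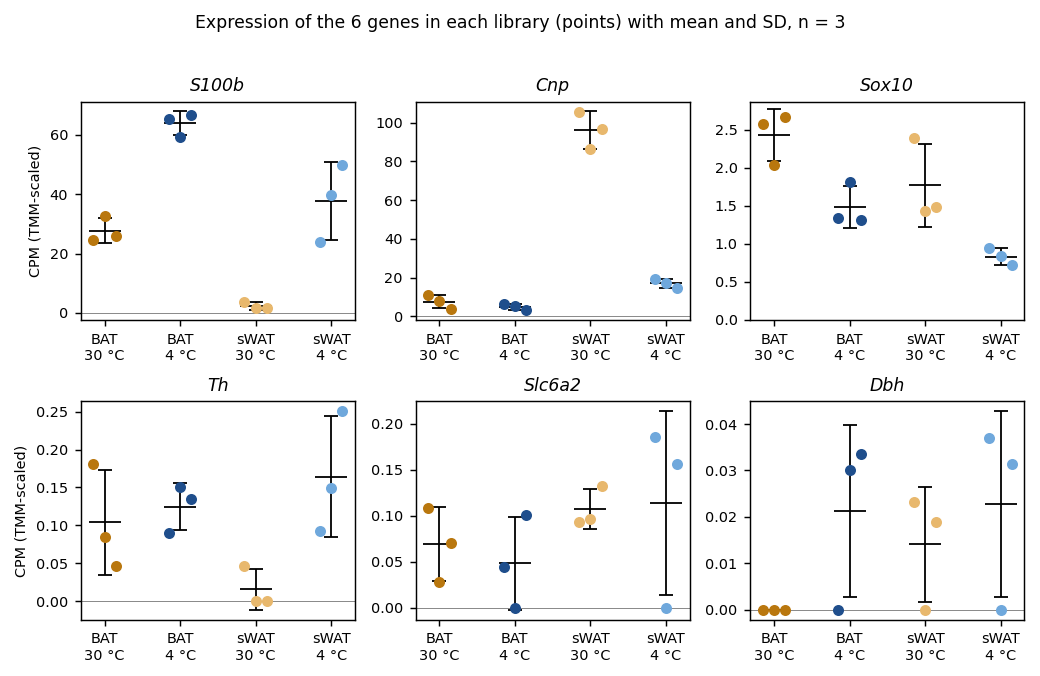
CPM (TMM-scaled, linear axes) of the 6 genes in each library, with points for the 3 libraries of a group and bars for the mean and SD. S100b is higher in every cold library than in any warm library of the same depot, Cnp is high in the 3 warm sWAT libraries (86.3 to 105 CPM), and Th, Slc6a2 and Dbh lie near 0 on axes of their own scale.

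Cnp moved the other way in sWAT. Its warm libraries held 105, 86.3 and 96.9 CPM, and its cold ones 19.5, 17.2 and 14.8, with no overlap. The means were 96.2 ± 9.54 and 17.2 ± 2.35 CPM (SD, n = 3 each), and the log2 fold change was −2.49 ± 0.24 (adjusted p = 0.00028, edgeR). This call held in each of the alternatives run, between −2.60 and −1.86.

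In BAT, Cnp was low at both temperatures, with 10.9, 8.00 and 3.98 CPM at 30 °C and 6.49, 5.39 and 3.36 CPM in the cold. The groups overlapped, and the log2 fold change of −0.52 ± 0.42 did not pass (adjusted p = 0.436, edgeR). The difference of the 2 responses did, at −1.90 ± 0.48 (adjusted p = 0.0133), although it missed the threshold once counts were corrected for GC content, at −1.17 (adjusted p = 0.0575). Cnp was lower in BAT than in sWAT, with a log2 difference of −3.66 ± 0.37 at 30 °C (adjusted p = 6.76e-06) and −1.76 ± 0.35 in the cold (adjusted p = 0.00417), and it was the 1 member called between the cold depots. The order of its levels was thus warm sWAT, cold sWAT, then warm and cold BAT, which did not differ beyond their spread.

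Dnajc7, the co-chaperone gene that shares exonic bases with Cnp, rose in cold sWAT by 1.99 ± 0.26 on the log2 scale (adjusted p = 0.000717, edgeR), the opposite direction to Cnp. It was also higher in BAT than in sWAT at 30 °C, by 2.72 ± 0.26 (adjusted p = 4.34e-06).

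Sox10 was low everywhere, between 0.720 and 2.67 CPM. In BAT it measured 2.57, 2.03 and 2.67 CPM at 30 °C and 1.34, 1.81 and 1.31 CPM in the cold. The cold libraries all lay below the warm ones, but the log2 fold change of −0.64 ± 0.32 did not pass (adjusted p = 0.217, edgeR). In sWAT it measured 2.39, 1.43 and 1.48 CPM at 30 °C and 0.945, 0.834 and 0.720 in the cold, again without overlap, and there the log2 fold change of −1.08 ± 0.39 passed (adjusted p = 0.0447).

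This call was near the threshold. Without warm sWAT library 1, the highest of the 3, it was −0.78 (adjusted p = 0.136), and the call was also lost without warm library 2 (0.0627) or 3 (0.0549) and without cold library 2 (0.117) or 3 (0.155). With no filter on low counts the adjusted p was 0.061, and with the experiment number as a replicate block it was 0.0809. With counts corrected for GC content the direction turned, to 0.29 (adjusted p = 0.604). Sox10 is the most GC-rich of the 6 transcripts, at 61.8% against 48.3 to 55.9% for the others, and the part of GC content in its values was not tested further. The difference of responses for Sox10 did not pass (−0.37 ± 0.47, adjusted p = 0.582), nor did the difference between the depots at 30 °C (0.46 ± 0.33, 0.243) or in the cold (0.83 ± 0.34, 0.136), though at 30 °C it reached 1.81 (adjusted p = 0.00278) with the GC correction.

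Levels of different genes are compared per kilobase of exon. On that scale S100b was the highest of the 3 tested genes in BAT, with means of 18.7 CPM per kb at 30 °C and 43.1 in the cold, against 2.10 and 1.40 for Cnp and 0.795 and 0.487 for Sox10. In warm sWAT the order was different: Cnp held 26.4 CPM per kb, S100b 1.52 and Sox10 0.580. In cold sWAT S100b led again with 25.5 CPM per kb, over Cnp at 4.72 and Sox10 at 0.273.

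**Figure D2:**
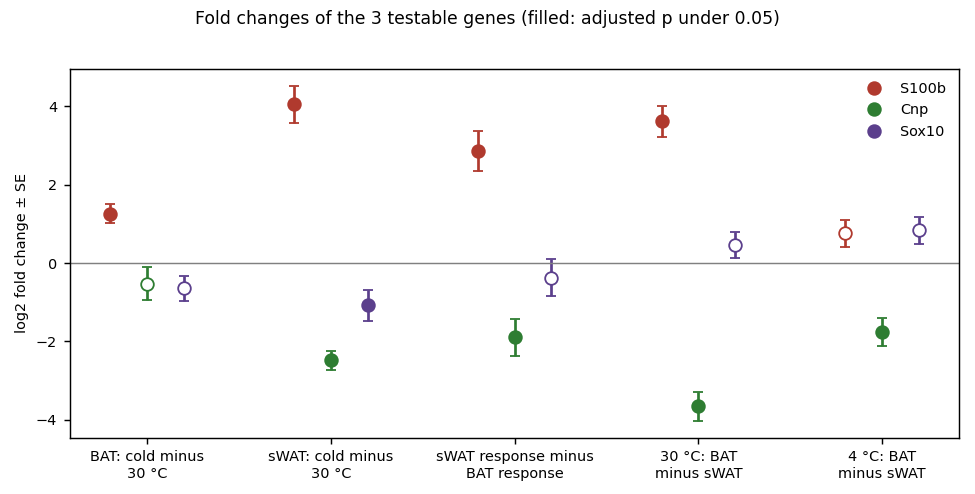
Log2 fold changes of S100b, Cnp and Sox10 (points) with their SE (bars) in the 5 comparisons, from edgeR. Filled points passed an adjusted p of 0.05; S100b lies above 0 in all 5 comparisons and Cnp below 0 in all 5.

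The nerve's own enzymes and transporter were barely detected. Th had 5, 3 and 2 counts in the warm BAT libraries and 2, 5 and 4 in the cold ones. In sWAT it had 2, 0 and 0 counts at 30 °C and 5, 5 and 8 in the cold. None of the 3 genes passed the filter on low counts in any comparison, so none entered the test across genes. A count of 3, the limit that a count of 0 allows, is worth 0.0556 to 0.134 CPM in these libraries.

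For Th, the counts of a group were therefore summed. In BAT the ratio of cold to warm was 1.36, with a 95% interval of 0.526 to 3.58 that covers counting error only, and no difference was detectable at this depth. In sWAT 18 counts in the cold stood against 2 at 30 °C, a ratio of 10.3 (2.47 to 91.7). Each cold sWAT library held more Th counts than any warm one. When edgeR was run with no filter on low counts, Th in sWAT passed, at 3.17 ± 1.09 on the log2 scale (adjusted p = 0.035), a fitted value that rests on the 2 warm counts, and in BAT it did not (0.41 ± 0.79, 0.77).

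Dbh had 0 counts in all 3 warm BAT libraries and 0, 1 and 1 in the cold, 1, 0 and 1 in warm sWAT and 2, 0 and 1 in cold sWAT. Its ratio in sWAT was 1.72 (0.197 to 20.6), from 3 counts against 2, and in BAT no ratio is given, since the warm libraries held 0 counts and the cold ones 2. Slc6a2 had 3, 1 and 3 counts in warm BAT, 1, 0 and 3 in cold BAT, 4, 4 and 7 in warm sWAT and 10, 0 and 5 in cold sWAT. The cold to warm ratios of Slc6a2 were 0.708 (0.152 to 2.79) in BAT and 1.15 (0.522 to 2.52) in sWAT, so no difference was detectable in either depot. Across the 12 libraries the highest count among these genes was 10.

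The other genes of catecholamine handling were read from a list of 20 that includes these 3. Of the 12 others tested in BAT, 2 were higher and 1 lower in the cold, and of the 14 tested in sWAT, 3 were higher and 3 lower. The shares of all genes called were 12.2% and 49.2%. The median log2 fold changes of the list were −0.05 and 0.15, beside −0.04 and 0.00 over all genes tested. Genes that clear or break down catecholamines were among those called. In BAT the monoamine transporter Slc29a4 went from 0.368 to 3.33 CPM (log2 3.20 ± 0.38, adjusted p = 0.00281) and the organic cation transporter Slc22a2 from 3.91 to 1.00 CPM (−1.89 ± 0.35, 0.0132).

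In sWAT both monoamine oxidases rose, Maob from 10.6 to 59.6 CPM (2.50 ± 0.26, adjusted p = 0.000367) and Maoa from 1.47 to 10.5 CPM (2.83 ± 0.38, 0.000772). Slc22a2 rose from 0.289 to 2.25 CPM (2.94 ± 0.46, 0.00133), against its fall in BAT, and the difference of the responses was 4.89 ± 0.55 (adjusted p = 0.000356). Pcbd1, which recycles the cofactor of tyrosine hydroxylase, fell from 1.10 to 0.293 CPM (−1.86 ± 0.54, 0.0201), and lost its call without warm library 2 (0.0565) or cold library 3 (0.0559). Between the depots at 30 °C, Maob and Slc22a2 were higher in BAT by 3.23 ± 0.35 and 3.73 ± 0.41 (adjusted p = 1.01e-05 and 1.16e-05). All adjusted p-values here are edgeR's. Slc22a2 in BAT lost its call without any 1 of warm libraries 1 and 2 and cold libraries 1 and 2 (adjusted p = 0.0511 to 0.0711), while Slc29a4 kept its call with each library left out.

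The Schwann cell list holds 34 genes, of which 3 are S100b, Sox10 and Cnp. The 31 others did not move as a block in sWAT, and in BAT they leaned lower in the cold, though few were called. In BAT 1 rose and 1 fell of 25 tested, where 6.82% and 5.34% of all genes did. The median of the 25 was −0.56 on the log2 scale beside −0.04 over all genes. In sWAT 4 rose and 6 fell of 28 tested, where 49.2% of all genes were called, with a median of −0.20 beside 0.00. Among those that rose there were Cdh19 (a cadherin of Schwann cell precursors), Scn7a (a sodium channel) and Gldn (gliomedin, which gathers channels at nodes). The 6 that fell were the myelin genes Mbp, Prx, Mag and Ncmap, the nerve growth factor receptor Ngfr and the ligand Dhh.

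Cdh19 went from 0.140 to 2.23 CPM in sWAT (3.95 ± 0.57, adjusted p = 0.00102) and Mag, the myelin-associated glycoprotein, from 2.55 to 0.508 CPM (−2.31 ± 0.36, 0.00132, edgeR). In BAT, Egr2, which drives myelination and is also an immediate early gene in many cells, fell from 2.77 to 0.387 CPM (−2.77 ± 0.42, 0.00716). Gldn rose from 2.02 to 4.58 CPM in BAT (1.24 ± 0.31, 0.0368). It lost that call without any 1 of warm libraries 1, 2 and 3 and cold libraries 1 and 2 (adjusted p = 0.0603 to 0.149), and Egr2 kept its call with each library left out. Gldn in BAT also missed the threshold in edgeR with upper quartile scaling (0.0567) and with 1 fit over 12 libraries (0.234). The difference of responses was called for 5 of 28, 4 of them higher in sWAT. Of all genes 25.1% were called in that contrast, 17.3% higher and 7.85% lower. The smallest adjusted p of the list was that of Cdh19 (5.52 ± 0.84, adjusted p = 0.00117, edgeR).

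The list's summed level, without the 3 members, was 171 to 224 CPM in warm BAT, 141 to 160 in cold BAT, 261 to 293 in warm sWAT and 221 to 365 in cold sWAT, and none of its 31 genes was at 0 in all 3 libraries of a group. The warm and cold sums overlap in sWAT and not in BAT. Abundant genes weigh most in them: Pmp22 averaged 118 CPM in warm and 122 in cold sWAT, and Mbp 76.1 and 43.3. The sum of 365 is cold sWAT library 1, with 182 CPM of Pmp22 and 57.8 of Scn7a. S100b and Cnp, which are outside the sum, differed in sWAT by a log2 of 4.05 and −2.49. In the cold, 8 of 28 list genes were lower in BAT than in sWAT and 0 higher, with 11.1% of all genes lower and 1.19% higher. Egr2 was one of them, at 0.387 against 2.67 CPM (−2.79 ± 0.55, adjusted p = 0.00415, edgeR, and −1.68 without cold sWAT library 1). At 30 °C 7 of 28 were higher in BAT and 9 lower, where 29.9% and 28.8% of all genes were.

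**Figure D3:**
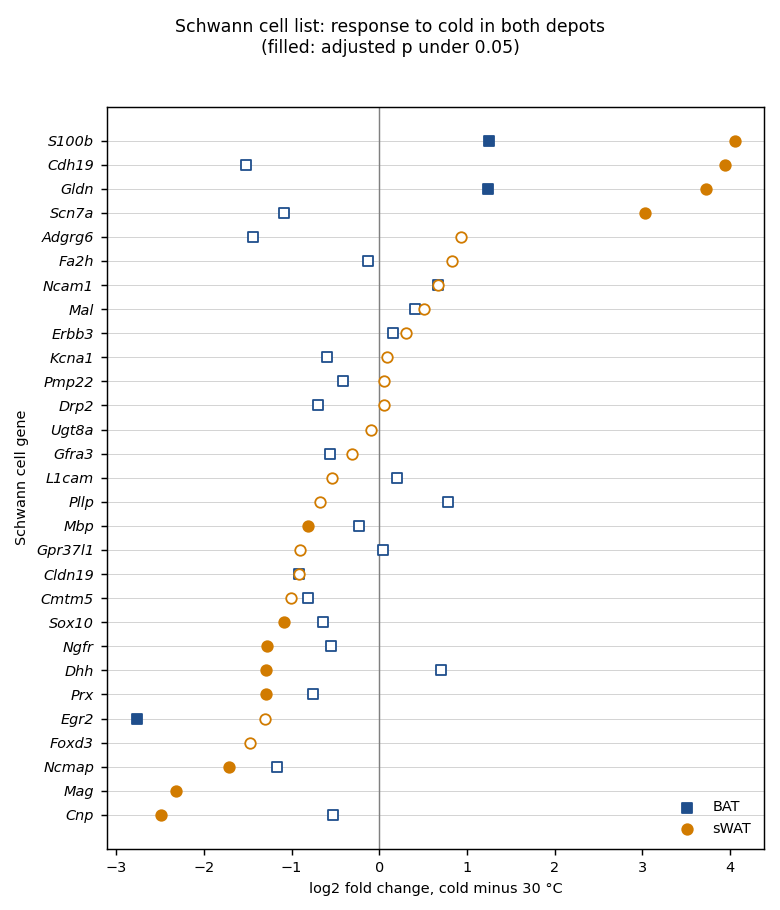
Log2 fold change from 30 °C to cold for each tested gene of the Schwann cell list, squares for BAT and circles for sWAT, filled where the adjusted p was under 0.05. S100b and Gldn are called higher in both depots, though most single-library omissions in BAT ended their calls there. Cnp and Sox10 lie with the 6 myelin and signalling genes that fell in sWAT. A gene tested in 1 depot has 1 symbol, and a few genes of the list are not shown.

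The sympathetic neuron list was sparse. Of its 31 genes 9 could be tested in BAT and 15 in sWAT. In BAT 2 rose and 1 fell, where 12.2% of all genes were called, and in sWAT 4 rose and 3 fell, where 49.2% were. Hand2 and Npy, a transcription factor and a co-transmitter of sympathetic neurons, had at most 2 counts in any library, and both were at 0 in all 6 BAT libraries. The genes that were called are made by other cells as well: Syp, a vesicle protein, rose in BAT from 12.6 to 30.7 CPM (1.34 ± 0.26, adjusted p = 0.0157) and Stmn2, a regulator of microtubules, from 1.66 to 3.76 CPM (1.25 ± 0.34, 0.0487). Chrnb4, a nicotinic receptor subunit, fell there from 1.60 to 0.102 CPM (−3.85 ± 0.56, 0.00589). Syp lost its call without any 1 of warm libraries 1 and 2 and cold libraries 1 and 2 (0.0563 to 0.0806), Stmn2 without any 1 of 5 libraries (0.066 to 0.176), and Chrnb4 kept its call and measured −3.12 without both libraries numbered 3. In edgeR, Stmn2 also missed the threshold with upper quartile scaling (0.0748), with no filter (0.0524) and with a filter of 1 CPM in 3 libraries (0.053).

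In sWAT the microtubule protein Mapt rose from 2.19 to 29.0 CPM (3.71 ± 0.56, adjusted p = 0.00118, edgeR) and Prph, a filament of peripheral neurons, fell from 1.23 to 0.109 CPM (−3.52 ± 0.61, 0.00219). Isl1, a transcription factor, had 5, 0 and 0 counts at 30 °C and 28, 32 and 32 in the cold (4.35 ± 0.93, 0.0054). Its fitted fold rests on warm library 1, without which the warm group is at 0. Sncg, a synuclein that adipocytes also make, was lower in cold BAT than in cold sWAT, at 10.4 against 59.7 CPM (−2.53 ± 0.47, 0.00297).

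Of 24 neurotrophic ligands and receptors other than S100b tested in sWAT, 8 rose and 5 fell, where 25.1% and 24.1% of all genes did, and their median was 0.51 on the log2 scale beside 0.00 over all genes. In BAT 3 rose and 1 fell of 21 tested, where 6.82% and 5.34% of all genes did. Clstn3 followed the direction of S100b: it rose in BAT from 92.6 to 294 CPM (1.72 ± 0.41, adjusted p = 0.0309) and in sWAT by 2.74 ± 0.64 (0.00812, edgeR). Its cold BAT libraries held 399, 331 and 152 CPM against 111, 106 and 60.8 at 30 °C, without overlap, and its cold sWAT libraries 78.2, 261 and 252 against 55.5, 19.7 and 12.2. Counts by symbol do not separate its adipocyte form from the neuronal one. The BAT call was lost without any 1 of warm libraries 1 to 3 and cold libraries 1 and 2 (0.0602 to 0.108). It was also lost in edgeR with 1 fit over 12 libraries (0.0725).

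Among receptors in BAT, Ntrk3 fell from 532 to 118 CPM (−2.11 ± 0.28, adjusted p = 0.00435) and Ntrk2 rose from 115 to 384 CPM (1.79 ± 0.38, 0.0210, edgeR). Ntrk2 lost its call without any 1 of warm libraries 1 and 2 and cold libraries 1 and 2 (0.0534 to 0.0921). In sWAT the ciliary neurotrophic factor receptor Cntfr rose from 9.87 to 52.4 CPM (2.39 ± 0.38, 0.00153), and Erbb4, a neuregulin receptor, had 72 counts in the cold against 2 at 30 °C, a ratio of 41.3 (11.02 to 347). Ntrk3 was 4.67 ± 0.33 higher in BAT than in sWAT at 30 °C (adjusted p = 7.53e-07) and 1.23 ± 0.29 higher in the cold (0.0129), on the log2 scale.

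In edgeR, S100b was the 1 gene of its family called in BAT, where 12.2% of all genes were called. Of the 8 other S100 genes tested there 0 passed, with 2 at an unadjusted p under 0.05, while DESeq2 called 2 and limma-voom 0. In sWAT 2 others rose and 2 fell of 10, where 25.1% and 24.1% of all genes did. S100a1, abundant in muscle and fat, rose from 129 to 560 CPM (2.11 ± 0.41, adjusted p = 0.00344), and S100a6 fell from 96.0 to 20.0 CPM (−2.28 ± 0.33, 0.000978). S100a9, a neutrophil gene, fell from 0.794 to 0.225 CPM (−1.82 ± 0.44, 0.00896). S100a4 was closest to the threshold between the cold depots, at 0.772 CPM in BAT against 2.29 in sWAT (−1.56 ± 0.49, 0.0544, edgeR).

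The 3 genes nearest to S100b in pattern over the 12 libraries were Idh3a, Pdk4 and Gpd2. Likeness was the root mean square difference of log2 CPM after each gene was centred on its own mean, among 12164 genes, so a small value is a close pattern, and it is a description in which all genes share the same libraries. Idh3a, a subunit of the mitochondrial isocitrate dehydrogenase, differed from S100b by 0.180, Pdk4, which restrains pyruvate oxidation, by 0.316, and Gpd2, the mitochondrial glycerol phosphate dehydrogenase, by 0.346, while the median gene differed by 1.94. Idh3a had group means of 909, 2135, 85.4 and 1182 CPM in warm BAT, cold BAT, warm sWAT and cold sWAT. Those of S100b were 27.8, 63.9, 2.26 and 37.8.

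Cnp was most like H2-Eb1, an antigen-presenting class II molecule, at 0.184, then the cell cycle kinase Pkmyt1 at 0.235 and Arhgef1, a guanine nucleotide exchange factor, at 0.260, with a median of 1.81 over genes. H2-Eb1 had means of 39.3, 22.6, 460 and 90.4 CPM in the same order, and Cnp 7.63, 5.08, 96.2 and 17.2. The nearest genes to Sox10 were Stap2 (0.278), Vsig2 (0.289) and Pde9a (0.294), with a median of 0.904.

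**Figure D4:**
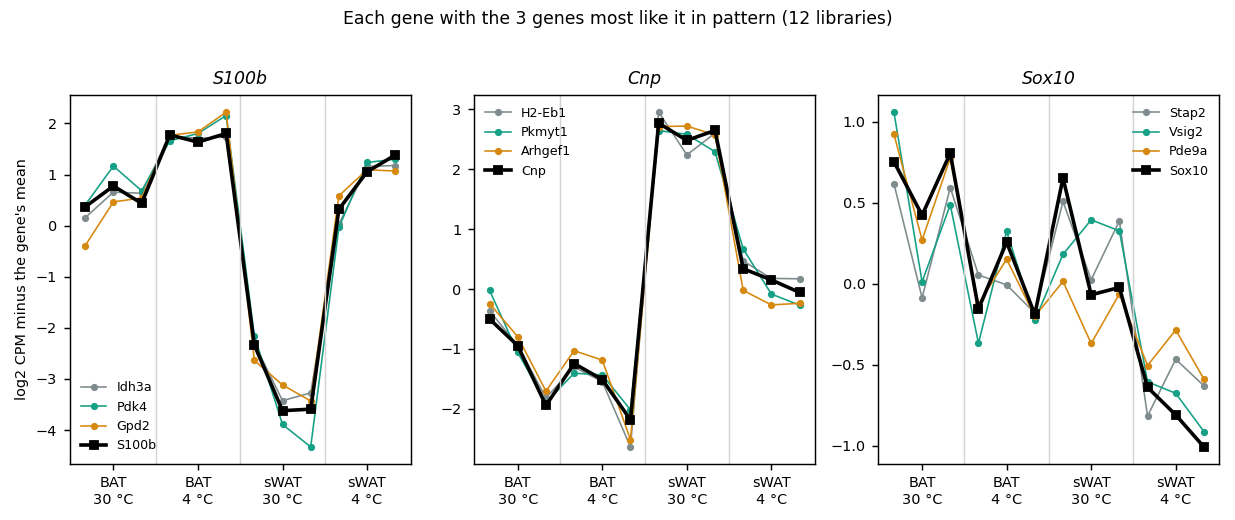
Log2 CPM minus the gene's mean in each of the 12 libraries for S100b, Cnp and Sox10 (black squares) and the 3 genes closest to each (coloured points), lines joining libraries in the order of the groups. Idh3a, Pdk4 and Gpd2 run along S100b, with root mean square differences of 0.180 to 0.346.

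Markers of other cell types were called in the same comparisons. Over all genes tested, 25.1% were called higher and 24.1% lower in cold sWAT, and 6.82% and 5.34% in cold BAT. The 12 lymphocyte markers summed to 843 to 1183 CPM in warm sWAT and 225 to 677 in cold sWAT, against 7.04 to 10.4 and 3.64 to 6.02 in BAT, and 7 of 12 fell in cold sWAT with 0 higher. The 10 macrophage markers summed to 973 to 1548 CPM in warm sWAT and 290 to 433 in cold sWAT, with 6 lower and 1 higher, against 115 to 178 and 109 to 123 in BAT. Cnp was highest in the same 3 libraries. Skeletal muscle markers ranged from 130 to 5579 CPM in warm sWAT and 7969 to 22248 in cold sWAT, with 8 of 12 higher and 0 lower, and from 4033 to 13130 and 4471 to 7255 in BAT, with 2 of 12 lower. Of 7 endothelial markers 4 rose in cold sWAT and 1 fell, with sums of 238 to 420 CPM warm and 427 to 555 cold, against 623 to 1043 and 962 to 1134 in BAT. Of 7 adipocyte markers 2 rose in cold sWAT, the lipid-binding Fabp4 (879 to 10705 CPM) and the regulator Pparg (36.8 to 187 CPM), and 1 fell, Cebpa (666 to 259 CPM). Mural cell markers had 1 higher and 1 lower of 8 there. No marker of these 6 lists was at 0 throughout a group. The part of any of these cells in the changes of S100b, Cnp or Sox10 was not tested.

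**Figure D5:**
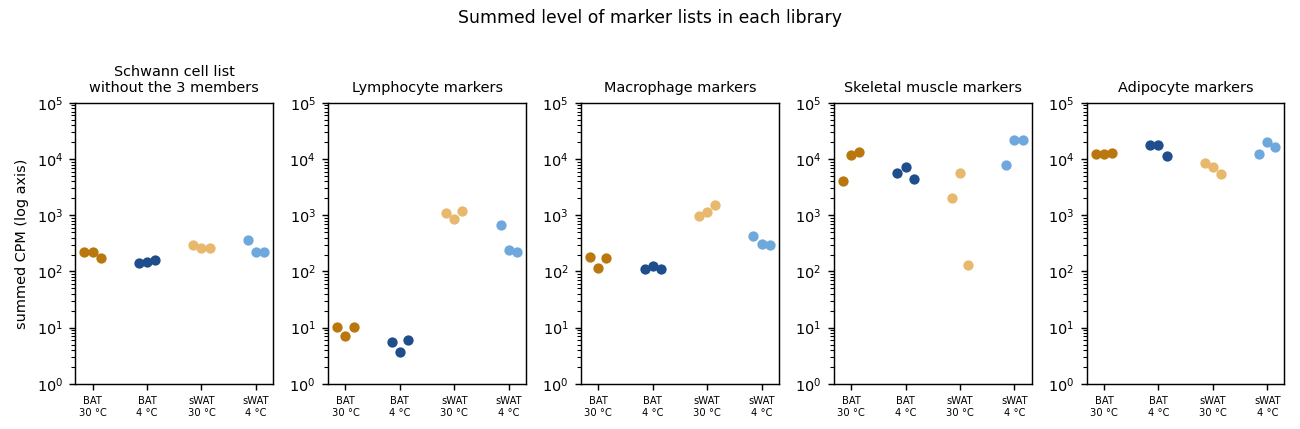
Summed CPM (log axis) of the Schwann cell list without its 3 members and of 4 marker lists, 1 point per library. The Schwann cell sums, in which Pmp22 is the largest part, stay between 141 and 365 CPM in the 12 libraries. The lymphocyte sums range from 3.64 to 1183 and are highest in warm sWAT.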

How the data were processed

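Libraries were made by Illumina TruSeq chemistry (1000 ng input, 100 nt paired reads), per the labels' protocols. The deposited table holds raw counts per gene, and the submitters' processing notes name STAR, DESeq2 and the mm10 build without versions. For the counting tool, strand setting and annotation, the sources used here give nothing. Every column was matched to a sample, 2 of them named as merged.

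Counts were tested with edgeR 4.0.16 (R 4.3.3; filterByExpr, TMM, robust quasi-likelihood fit), with Benjamini-Hochberg adjustment over all genes tested and a threshold of 0.05. Each depot was fitted on its 6 libraries, and the other 3 comparisons on all 12. The fits on 12 libraries treat BAT and sWAT libraries as independent, although they may come from the same mice. SEs come from the log2 fold change and its F statistic. CPM are TMM-scaled. Ratios of summed counts have exact 95% binomial intervals, for counting error only. The fits were tested on simulated data.

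Named genes are the 6 members, then up to 4 genes per list with the smallest adjusted p under 0.05 within a depot and up to 2 in the other comparisons (1 where none passed), and the 3 genes closest in pattern to each tested member among those whose log2 CPM averaged 0 or more (prior count 2). Other gene names complete a list of calls, mark a tissue or overlap a member, and Clstn3 in sWAT, Hand2, Npy and the adipocyte markers were chosen after their values were seen. Some named genes are not reported here. The 6 members and the 11 gene lists were chosen with earlier results of these data known. Alternatives were RLE and upper quartile scaling, totals without mitochondrial genes, all genes unfiltered, genes reaching 1 CPM in 3 libraries, a fit without the robust setting, DESeq2 1.42.0, limma-voom (limma 3.58.1), a GC correction (loess, span 0.5), a replicate block, 1 fit over 12 libraries, and each library left out.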

Additional observations from a re-analysis of the deposited data

Results flagged for a closer look

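The change from 30 °C to cold differed between sWAT and BAT for S100b, Cnp and the leading genes of each list in this contrast, 10 genes in all, by an interaction term in edgeR over 12 libraries (adjusted p under 0.05 for each). Other genes of the lists passed it too. The values that follow are the response in sWAT minus that in BAT on the log2 scale, and a call in this contrast was made for 25.1% of the genes tested. S100b differed by 2.86 and Cnp by −1.90. Of the Schwann cell list, Cdh19 differed by 5.52, and by 4.90 without warm BAT library 1 and 6.44 without both BAT libraries numbered 3. With the GC correction Cdh19 differed by 3.72. Of the catecholamine list, Slc22a2 differed by 4.89 and Maob by 2.86. Mapt differed by 3.60, and by 2.99 without cold sWAT library 2. Chrnb4 differed by 3.52, but was lost without cold BAT library 1 (adjusted p = 0.0536) or cold sWAT library 1 (2.20, adjusted p = 0.0626), and measured 2.83 without both BAT libraries numbered 3. Ntrk3 differed by 3.43, and by 2.60 with the GC correction. The fitted difference for Erbb4 was 6.92, a value that depends on its 2 counts in warm sWAT (6.32 without warm sWAT library 3, and 7.56 without both BAT libraries numbered 3). S100a9 differed by −3.41 (adjusted p = 0.0305), and by −5.18 without warm BAT library 3 and −5.44 without both BAT libraries numbered 3, and it missed the threshold without any 1 of warm BAT library 1, cold BAT libraries 1 and 2, warm sWAT library 2 and cold sWAT library 3 (adjusted p = 0.0522 to 0.0713).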

How the results depend on the processing

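Warm sWAT is the group whose GC trend and mitochondrial share stood apart, so the GC correction bears most on it. With that correction Sox10 turned to 0.29 for cold minus warm sWAT and to 1.02 for the difference of responses, and the members called for the difference of responses went from 2 to 1, since Cnp was lost. The sizes of other named genes moved too. For cold minus warm sWAT, Cdh19 went from 3.95 to 2.17, Maoa from 2.83 to 1.57, Mag from −2.31 to −1.41 and Prph from −3.52 to −2.35. Cntfr grew there, from 2.39 to 3.43. Each of these genes kept its call. Leaving out 1 BAT library gave 0 to 1 members called within BAT. For the 3 tested members, 297 of 312 values under alternatives kept their direction and side of the threshold. That count includes values not called in the main fit that stayed uncalled. Sox10 in sWAT kept its call in 9 of 17 alternatives and S100b in BAT in 14 of 18. With no filter Th could be fitted in sWAT, at 3.17 (adjusted p = 0.035). Leaving out both BAT libraries numbered 3 was an alternative chosen after seeing the data. S100a4 passed between the cold depots in 8 alternatives, and Slc29a4 there was lost without cold sWAT library 3 (adjusted p = 0.0705).

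Counts over all genes moved more. In BAT 996 genes were called higher and 781 lower, with upper quartile scaling 774 and 1089 (the median over genes went from −0.04 to −0.20 in log2), with DESeq2 1524 and 1282, with the GC correction 1553 and 1510, and without both libraries numbered 3 3265 and 3244. For the difference of responses 2824 and 1284 became 2423 and 1727 with RLE scaling (the median from 0.12 to −0.03), 2485 and 1678 with totals without mitochondrial genes and 2884 and 2290 with DESeq2. Between the cold depots 195 and 1820 became 721 and 2055 with DESeq2. S100b and Cnp kept their directions under each of these scalings.

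Same-numbered libraries did not deviate together in all pairs (r from −0.312 to 0.187 in sWAT and 0.0665 to 0.306 in BAT), and 5 of 6 BAT and 0 of 6 sWAT libraries correlated best with their own number, and the labels do not say what libraries of 1 experiment share, so the numbers are not taken as pairs. With a replicate block, Sox10 in sWAT measured −1.06 (adjusted p = 0.0809) and genes called in BAT became 1493 higher and 1306 lower. The same members were called in BAT with the block. Depth limits Th, Dbh and Slc6a2, which had at most 10 counts in any library.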
